A study of Mus musculus with 12 samples.

Results

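The transforming growth factor beta (TGF-beta) ligands, their receptors and the latent binding proteins were followed in dermal papilla (DP) cells of control mice and of mice mutant for Fgfr1 and Fgfr2 in the DP (dMF1/2). The 10 genes Tgfb1, Tgfb2, Tgfb3, Tgfbr1, Tgfbr2, Tgfbr3, Ltbp1, Ltbp2, Ltbp3 and Ltbp4 were chosen by name, and all 10 were found among the 14986 genes measured on both days, all labelled protein-coding in the tables. In dMF1/2 mice, the ligand Tgfb1 was lower and the latent binding protein Ltbp1 was higher. Both differences passed the test at P16, and at P14 the groups lay apart in the same directions without passing it. The other 8 genes did not pass the test between the genotypes on either day.

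The DP is the small cluster of mesenchymal cells at the base of the hair follicle that instructs the epithelium to grow hair. TGF-beta is made as a precursor whose cleaved propeptide stays wrapped around the mature growth factor and keeps it latent. Latent binding proteins attach this complex to the extracellular matrix, from which integrins, proteases and thrombospondin can release the active ligand. Active ligand binds the type II receptor Tgfbr2, which phosphorylates the type I receptor Tgfbr1, and Smad2 and Smad3 carry the signal to the nucleus. In the hair follicle, TGF-beta signaling is best known for its part in the entry into regression (catagen) and in the activation of the hair germ at the start of a new growth phase (anagen).

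The study asked how Fgf signaling in the DP sets the length of anagen. Groups of 3 mice were used, namely control and dMF1/2 mice at postnatal days 14 and 16 (P14 and P16), all in anagen. The dMF1/2 mice carried Cor-cre, which is active in the DP after birth, with both copies of Fgfr1 and of Fgfr2 floxed. Control and mutant mice also shared a Cre-dependent ROSA26 YFP reporter, and YFP-positive cells were sorted from whole dissociated skin. The labels call the controls wild type. Since YFP needs Cre, the only control genotype in the methods that fits the sort is Cor-cre with 1 floxed copy of each receptor gene, so that sorted control cells may already lack a copy of each.

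The 12 libraries held 19302358 to 29860750 reads over the genes of their tables. Fgfr1 was measured at 8885 ± 1119 normalized reads (SD, n = 3) in control and 6731 ± 583 in dMF1/2 mice at P14, and at 10323 ± 2030 and 7264 ± 929 at P16. The dMF1/2 mice lay below the controls on both days, although neither difference passed the test (limma, adjusted p = 0.501 and 0.130). Fgfr2 overlapped between the genotypes, with means of 4783 ± 260 and 4483 ± 766 at P14 and 5079 ± 298 and 5081 ± 838 at P16 (log2 fold changes -0.11 and -0.012, limma adjusted p = 0.974 and 0.978). A gene's count takes in all of its exons, and reads of the floxed exons were not examined, so their loss was not tested. All 12 DP markers in the list were detected, with a summed level of 3528 to 7797 CPM (reads scaled to a fixed library total) in P14 control libraries. The 8 dermal fibroblast markers summed to 2742 to 4606 CPM over the 12 libraries, and the 8 dermal sheath markers to 702 to 1549 CPM. The fibroblast sum was above the DP sum in each P16 control library, in P14 dMF1/2 replicate 2 and in P16 dMF1/2 replicates 1 and 2. Keratinocyte, melanocyte and immune markers summed to at most 36.3, 4.53 and 14.3 CPM in any library. The P14 libraries numbered 1 stood apart from the rest in both genotypes. Col1a1 took 7.06% of the reads in the control library and 9.15% in the dMF1/2 library with that number, and 13.1% to 17.7% in the other 10.

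The upstream sequence of the pair of genes that differed between the genotypes is shown first, because both were called at P16 and their relatives were not. The sequences are from RefSeq (GRCm38.p6), run 5′ to 3′ on the plus strand and end just before the annotated start. Tgfb1 has an entry at chr7:25686752-25687001, and Ltbp1 has a distal start at chr17:75005279-75005528 and an internal one at chr17:75178531-75178780. Capitals mark CAGACA, a Smad-binding core, on either strand (TGTCTG on the opposite one).
Tgfb1: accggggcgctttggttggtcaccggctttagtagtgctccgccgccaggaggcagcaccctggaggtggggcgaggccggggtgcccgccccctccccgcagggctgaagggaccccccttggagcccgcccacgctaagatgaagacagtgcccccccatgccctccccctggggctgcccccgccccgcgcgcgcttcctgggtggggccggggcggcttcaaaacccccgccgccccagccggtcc
Ltbp1, distal: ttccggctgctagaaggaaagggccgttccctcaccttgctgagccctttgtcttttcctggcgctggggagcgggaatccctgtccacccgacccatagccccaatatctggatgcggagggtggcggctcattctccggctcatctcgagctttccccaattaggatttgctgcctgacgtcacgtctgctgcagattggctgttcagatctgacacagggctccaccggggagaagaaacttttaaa
Ltbp1, internal: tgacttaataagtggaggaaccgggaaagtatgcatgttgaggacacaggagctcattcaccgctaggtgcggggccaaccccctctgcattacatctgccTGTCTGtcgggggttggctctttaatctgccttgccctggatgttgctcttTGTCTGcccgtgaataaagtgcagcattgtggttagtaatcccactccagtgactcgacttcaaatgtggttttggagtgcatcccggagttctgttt
The Tgfb1 window is 75.2% G and C and holds 21 CpG dinucleotides, against medians of 52.4% and 6 over 32851 promoters of the same length. The distal and the internal window of Ltbp1 hold 56.8% and 50.8% G and C, with 12 and 7 CpG. CAGACA occurred at 2 places in the internal Ltbp1 window, 149 and 98 bases before the start, and in none of the other 2 windows. It is found in 17.1% of all promoters of this length, on either strand. TGAGTCA, the AP-1 consensus, and CTTTGAT, a Tcf/Lef core, occurred in none of the 3 windows and in 4.46% and 3.21% of all promoters. These are matches of letters only. Of the 10 genes, 8 had an entry, and single CAGACA matches lay in windows of Tgfb2 and Tgfbr1.

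The ligands were examined first. Tgfb1 encodes the most widely studied isoform, which is made by many cell types. At P14, the control mice had 1574, 1059 and 1681 normalized reads of Tgfb1 (reads divided by the size factor of the library), and the dMF1/2 mice 946, 866 and 745. At P16, the control values were 1926, 1554 and 1941, and the dMF1/2 values 984, 773 and 1039. On both days each dMF1/2 mouse lay below each control mouse, and the lowest control value was closer to the mutants at P14 than at P16. At P16 the mean was 1807 ± 219 (SD, n = 3) in control and 932 ± 141 in dMF1/2 mice. This was a log2 difference of -0.96 (standard error 0.14, 95% interval -1.28 to -0.64, limma adjusted p = 0.0111). The P14 means were 1438 ± 332 and 852 ± 101, with a log2 fold change of -0.73 (standard error 0.19, 95% interval -1.17 to -0.29) that did not pass the test (limma adjusted p = 0.345). It was also -0.73 without both P14 libraries numbered 1 (adjusted p = 0.5002). DESeq2 on the recovered reads called Tgfb1 on both days (adjusted p = 0.0266 at P14 and 1.47e-07 at P16). Without P16 control replicate 3, limma's adjusted p at P16 was 0.0518.

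Tgfb2 encodes the isoform that depends most on the co-receptor Tgfbr3 for binding to its receptors, and it was the ligand with the most reads. The control mice had 2334, 4327 and 3474 normalized reads at P14, and the dMF1/2 mice 3729, 4079 and 4301. The P16 controls had 5440.1, 4588 and 4166, and the mutants 4887, 5380.4 and 5117. The genotypes overlapped on both days, and the lowest value belonged to P14 control replicate 1. The log2 fold changes of 0.30 (95% interval -0.20 to 0.80) at P14 and 0.12 (-0.13 to 0.38) at P16 did not pass the test (limma adjusted p = 0.893 and 0.627).

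Tgfb3, the third isoform, is best known for its role in fusion of the palate. It had 1195, 1728 and 1692 normalized reads in control and 1378, 1950.3 and 1734 in dMF1/2 mice at P14, and 1671, 1709 and 1552 against 1678, 1829 and 1561 at P16. The genotypes overlapped on both days, and the lowest values were in the P14 libraries numbered 1. The intervals of the log2 fold change were -0.29 to 0.57 at P14 and -0.17 to 0.24 at P16 (limma adjusted p = 0.976 and 0.882).

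**Figure D1:**
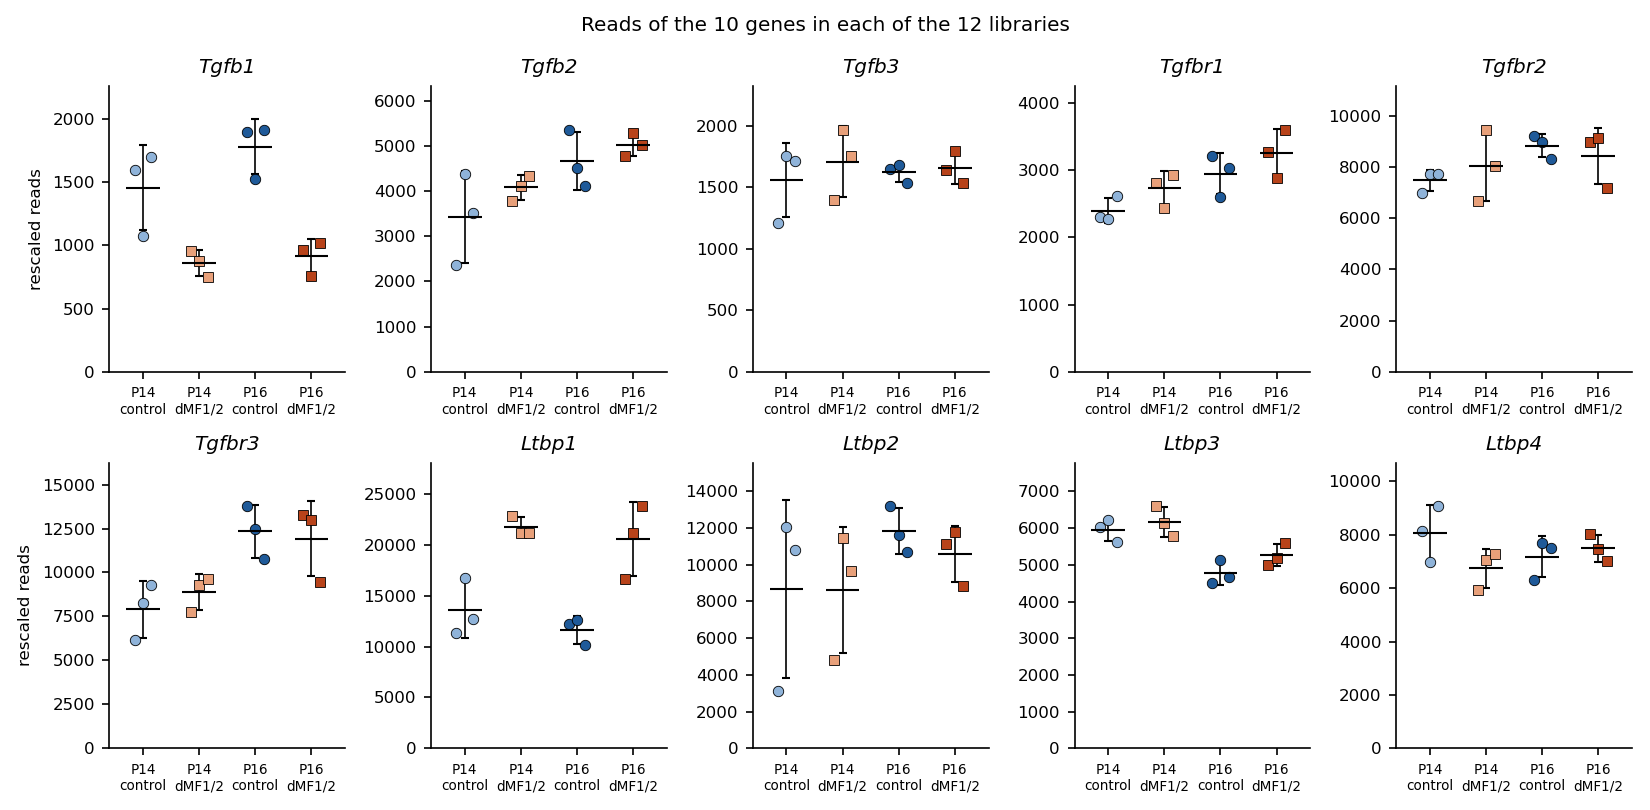
Rescaled reads (all 12 libraries on 1 scale) of the 10 genes in each mouse by group; points are mice, horizontal lines are means and bars are 1 SD (n = 3). The dMF1/2 mice (squares) sit below the controls (circles) for Tgfb1 and above them for Ltbp1 on both days, and the first of the 3 points of each P14 group is the lowest of its group for Ltbp2 and Tgfbr3.

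The receptors did not pass the test between the genotypes. Tgfbr1, the type I kinase, had 2269, 2237 and 2574 normalized reads in control and 2773, 2414 and 2904 in dMF1/2 mice at P14, and 3247, 2647 and 3073 against 3334, 2934 and 3668 at P16. The mean was higher in dMF1/2 mice on both days, but the groups overlapped, and the log2 fold changes of 0.19 (95% interval -0.056 to 0.44) and 0.15 (-0.12 to 0.41) did not pass the test (limma adjusted p = 0.814 and 0.567). Each dMF1/2 mouse lay above the control of the same number and day. With the replicate number as a block, the limma adjusted p was 0.337 at P14 and 0.240 at P16.

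Tgfbr2, the type II kinase that binds ligand first, was the more abundant of the signaling receptors. It had 6908, 7600.0 and 7612 normalized reads in control and 6570.4, 9372 and 7950.3 in dMF1/2 mice at P14. At P16 the values were 9327, 9148 and 8430 (control) and 9198, 9306 and 7324 (dMF1/2). One dMF1/2 mouse was the lowest and another among the highest on each day, and the intervals of the log2 fold change were -0.24 to 0.44 and -0.33 to 0.20 (limma adjusted p = 0.981 and 0.829).

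Tgfbr3 encodes betaglycan, a co-receptor without kinase activity that presents ligand to Tgfbr2. It had 6057, 8141 and 9179 normalized reads in control and 7619, 9191 and 9549.9 in dMF1/2 mice at P14, and 13975, 12696 and 10887 against 13592, 13211 and 9635 at P16. The genotypes overlapped on both days. Each day was scaled separately, and the days are compared below after rescaling. The intervals of the difference between genotypes were -0.23 to 0.60 at P14 and -0.42 to 0.31 at P16 (limma adjusted p = 0.933 and 0.909).

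Among the latent binding proteins, which tether latent TGF-beta to fibrillin and fibronectin in the matrix, Ltbp1 differed between the genotypes. At P14, the control mice had 11244, 16529 and 12515 normalized reads and the dMF1/2 mice 22541, 20935.5 and 21007. The P16 controls had 12408, 12816 and 10241, against 17079.9, 21566.5 and 24277 in the mutants. On each day all 3 dMF1/2 mice lay above all 3 controls, with P14 control replicate 2 and P16 dMF1/2 replicate 1 nearest to the other genotype. At P16 the mean was 11822 ± 1384 (SD, n = 3) in control and 20974 ± 3635 in dMF1/2 mice. This was a log2 difference of 0.82 (standard error 0.15, 95% interval 0.46 to 1.17, limma adjusted p = 0.0273). The P14 mean was 13429 ± 2759 against 21495 ± 907, with a log2 fold change of 0.70 (standard error 0.16, 95% interval 0.31 to 1.09) that did not pass the test (limma adjusted p = 0.301). It was 0.54 without both P14 libraries numbered 1 (adjusted p = 0.423). DESeq2 called it on both days (adjusted p = 0.00816 and 1.12e-05). Leaving out a P16 library raised limma's adjusted p to 0.0994 for control replicate 3, to 0.0791 for dMF1/2 replicate 2 and to 0.0996 for dMF1/2 replicate 3.

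Ltbp2 is the family member that does not bind latent TGF-beta. It had 3073, 11893 and 10637 normalized reads in P14 control and 4714, 11334 and 9555 in P14 dMF1/2 mice, and 13372, 11820.3 and 10812 against 11383, 11958 and 9008 at P16. Both P14 libraries numbered 1 were far below the rest, at 0.273 (control) and 0.451 (dMF1/2) of the mean of the other 2 mice of the group. The interval of the P14 difference was wide, from -1.18 to 1.45 on the log2 scale, and that at P16 ran from -0.47 to 0.15 (limma adjusted p = 0.999 and 0.606). D030025P21Rik, which GENCODE lists as antisense and the tables as protein-coding, shares 764 exon bases with Ltbp2, 9.33% of its exons, and the strand setting of the counting was not stated.

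Ltbp3, another binding partner of latent TGF-beta, had 5546 to 6121 normalized reads in control and 5726 to 6507 in dMF1/2 mice at P14, and 4563 to 5227 against 5105 to 5699 at P16. Ltbp4, which also takes part in the assembly of elastic fibers, had 6868 to 8959 normalized reads in control and 5841 to 7223 in dMF1/2 mice at P14, and 6386 to 7833 against 7156 to 8216 at P16. The genotypes overlapped for both genes on both days. The log2 fold changes were 0.055 (95% interval -0.17 to 0.28) and 0.15 (-0.058 to 0.36) for Ltbp3, and -0.25 (-0.57 to 0.075) and 0.076 (-0.17 to 0.32) for Ltbp4 (limma adjusted p from 0.436 to 0.989).

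**Figure D2:**
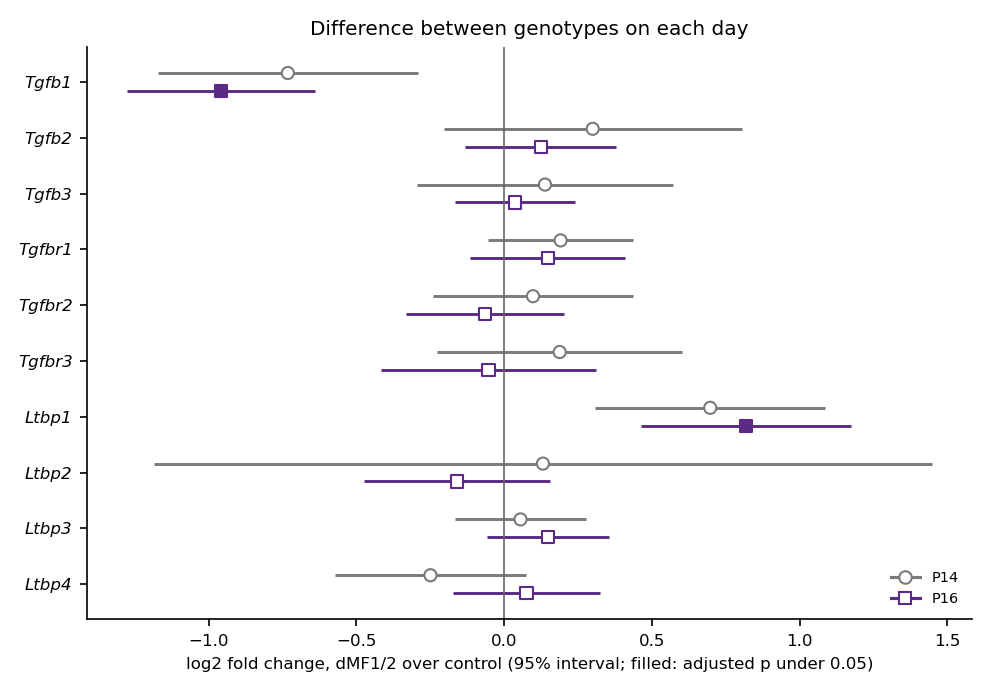
Log2 fold change of dMF1/2 over control with its 95% interval for each gene at P14 (circles) and P16 (squares), 3 mice against 3; filled symbols passed the test. Tgfb1 (-0.96) and Ltbp1 (0.82) are filled at P16, and only their intervals exclude 0 on either day.

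Thus 2 of the 10 genes were called between the genotypes at P16, against 4.32% of the 13457 genes tested. Of the 10, 1 was higher and 1 lower in dMF1/2 mice, and of all genes 2.18% and 2.14%. DESeq2 also called 2 of the 10, against 8.35% of all genes. At P14 limma called none, against 0.0525% of 13334 genes. Tgfb1 and Ltbp1 were the 2 with an unadjusted p under 0.05 (7.32% of all genes) and the 2 called by DESeq2 (1.55% of all genes). When the replicate number entered as a block, limma called 0 of the 10 at P14 (adjusted p = 0.0734 for Tgfb1 and 0.0526 for Ltbp1), against 1.68% of all genes, and 2 at P16, against 10.4%. Groups that did not overlap were seen for 2 of the 10 on each day, against 12.7% of all genes at P14 and 24.5% at P16. Separation in the same direction on both days, as for Tgfb1 and Ltbp1, was found for 2.37% (lower in dMF1/2) and 2.77% (higher) of 13173 genes. The median log2 fold change of the 10 was 0.13 at P14 and 0.056 at P16, against 0.0048 and -0.0043 for all genes. In bulk RNA of sorted cells, fewer cells of a type and less RNA per cell cannot be told apart.

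Marker genes moved with the genotype at P16. The 12 DP markers summed to 1214 to 2684 CPM in P16 control and 3719 to 6208 CPM in P16 dMF1/2 libraries, and the 6 mural markers to 904 to 1125 and 461 to 603 CPM. At P14 the genotypes overlapped for both lists, with 3528 to 7797 against 3450 to 8089 CPM for DP markers and 447 to 824 against 490 to 553 CPM for mural markers. Endothelial markers overlapped on both days, between 29.8 and 82.1 CPM in all, and no marker in the tables was at 0 in all 3 mice of a group. Of the 6 adipocyte markers, 1 was in the P14 and 3 in the P16 table, with a sum of 5.77 to 30.3 against 16.2 to 29.95 CPM (control against dMF1/2) at P14 and 2.08 to 3.74 against 10.8 to 16.7 CPM at P16. Dermal sheath, dermal fibroblast, keratinocyte, melanocyte, immune, Schwann and skeletal muscle lists overlapped between the genotypes on both days. The part of these marker levels in the differences of Tgfb1 and Ltbp1 was not tested. The DP sum is not by itself a count of DP cells, because genes of the DP can change with genotype and day. The paper reports this for Rspo3, whose expression it found only in the DP. That gene decreased in control mice towards the end of anagen and stayed higher in the mutants. Whether DP cell number or such regulation moved the DP sum was not tested.

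Levels were then compared between genes, per kilobase of exon, after the 12 libraries were put on 1 scale. The order was least settled in P14 control mice, where 1 of the 9 pairs of neighbors did not overlap, against 3 in P14 dMF1/2, 5 in P16 control and 4 in P16 dMF1/2 mice. Tgfb1 was the lowest of the 10 in all 4 groups, with means of 289 and 353 rescaled reads per kilobase in control and 171 and 181 in dMF1/2 mice at P14 and P16. It lay below the next gene, Tgfbr1 or Tgfb3, without overlap of the mice in each group. Ltbp1 was the highest in both dMF1/2 groups, at 2033 and 1925 rescaled reads per kilobase, and it ranked 2 in P14 and 5 in P16 control mice, at 1273 and 1089.6. In these groups the order at the top was not settled, because Ltbp1 overlapped with Tgfbr2 in P14 dMF1/2 and with Tgfbr3 in P16 dMF1/2 mice. Tgfbr2 and Tgfbr3 led in P16 control mice, at 1848 and 1885 rescaled reads per kilobase, and also overlapped. They were followed in those mice by Ltbp2, then by Ltbp4 and Ltbp1, which overlapped, then by Tgfb2, then by Ltbp3, Tgfb3 and Tgfbr1, each of which overlapped with its neighbor, and by Tgfb1.

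The composition of the ligand and binding protein pools was computed for each mouse. Of the summed per-kilobase level of the 3 ligands, Tgfb1 made up 22.3% ± 7.51 (SD, n = 3) in P14 control and 12.5% ± 2.37 in P14 dMF1/2 mice, and 21.6% ± 2.76 and 11.8% ± 2.08 at P16. The shares in control and dMF1/2 mice overlapped at P14, where P14 control replicate 2 had 14.3% and dMF1/2 replicate 1 had 15.1%, and lay apart at P16. When both P14 libraries numbered 1 are set aside, the remaining P14 controls had 14.3% and 23.3% and the remaining mutants 11.8% and 10.5%. Tgfb2 was the largest ligand share in each library, between 37.7% and 57.2%. Ltbp1 made up 30.1% ± 3.46 of the summed per-kilobase level of the 4 binding proteins in P14 control and 42.6% ± 5.63 in P14 dMF1/2 mice, and 26.1% ± 1.73 and 38.7% ± 5.67 at P16. The same 2 P14 controls had 32.6% and 26.2%, and the same 2 mutants 38.4% and 40.3%. The ratio of Ltbp1 to Tgfb1 levels per kilobase was 2.49 to 7.36 in the 6 control mice and 8.19 to 13.3 in the 6 dMF1/2 mice. These shares and ratios restate the counts of Tgfb1 and Ltbp1 and are given without a test.

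**Figure D3:**
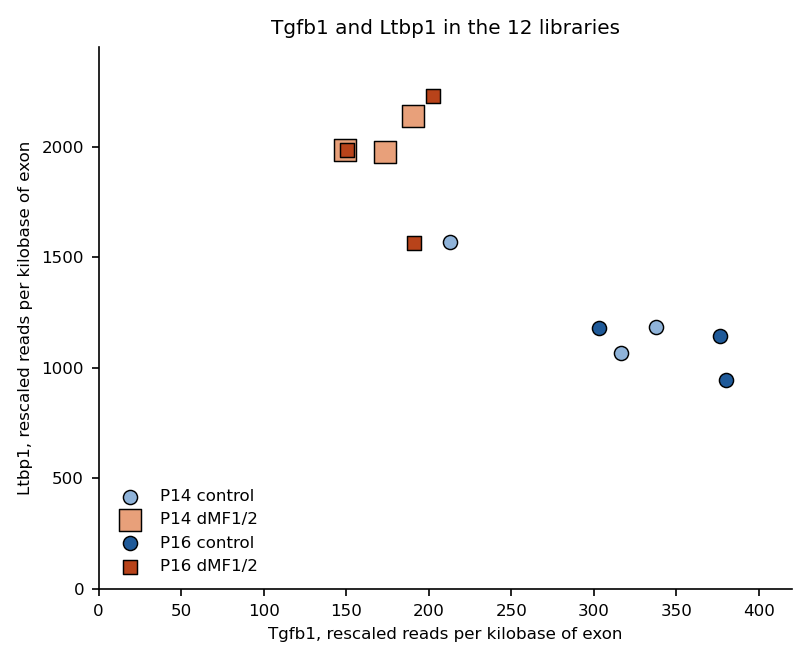
Ltbp1 against Tgfb1 in each of the 12 libraries, both in rescaled reads per kilobase of exon; circles are control and squares dMF1/2 mice, with larger squares for P14. The 6 dMF1/2 mice lie at the upper left, and P14 control replicate 2 reaches the Ltbp1 level of P16 dMF1/2 replicate 1 (1568 and 1562 rescaled reads per kilobase).

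Between P14 and P16, control mice showed 2 called changes among the 10 genes, against 14.5% of 13415 genes tested (6.26% rose and 8.28% fell). Neither the labels nor the methods say whether libraries of the different days were prepared together, so preparation and day cannot be told apart. Tgfbr3 rose from 6134, 8258 and 9300.4 to 13774, 12483 and 10753 rescaled reads, so that each P16 mouse lay above each P14 mouse. Its log2 fold change was 0.66 (standard error 0.18, 95% interval 0.27 to 1.05, limma adjusted p = 0.0328). Ltbp3 fell from 6039.7, 6208 and 5619 to 4497, 5139.8 and 4676 rescaled reads, again without overlap, with a log2 fold change of -0.32 (standard error 0.087, 95% interval -0.51 to -0.13, limma adjusted p = 0.0321). Both calls depended on single libraries. Without both P14 libraries numbered 1, the log2 fold change of Tgfbr3 was 0.49 (limma adjusted p = 0.0876) and that of Ltbp3 -0.31 (adjusted p = 0.0694). With only the 6 control libraries in the fit, the adjusted p was 0.0688 for Tgfbr3 and 0.0816 for Ltbp3. The adjusted p of Tgfbr3 was 0.114, 0.0630, 0.115 and 0.0686 without P14 control replicate 1, P14 control replicate 2, P16 control replicate 1 and P16 control replicate 2. That of Ltbp3 was 0.0892, 0.0923, 0.117 and 0.0885 without P14 control replicate 1, P14 control replicate 2, P16 control replicate 1 and P16 control replicate 3. In control mice the DP marker sum was also lower at P16 than at P14 (1214 to 2684 against 3528 to 7797 CPM). The mural (904 to 1125 against 447 to 824 CPM), dermal fibroblast (3554 to 4570 against 3134 to 3538 CPM) and immune sums (9.62 to 14.3 against 3.73 to 9.57 CPM) were higher. The fibroblast and immune ranges nearly touched. The immune sum is over 5 genes on each day, of which Cd52 was in the P14 table only and Tyrobp in the P16 table only. The adipocyte sum was lower (2.08 to 3.74 CPM over 3 genes against 5.77 to 30.3 CPM over 1). Their part in these changes was not tested, and the limit of the DP sum given above holds here too.

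Tgfbr2 also lay apart between the days in control mice, at 6996.5 to 7712 against 8326 to 9193 rescaled reads, but its log2 fold change of 0.24 (95% interval -0.049 to 0.53) did not pass the test (limma adjusted p = 0.236). Groups apart were thus found for 3 of the 10 genes, against 36.0% of all genes. Tgfb2 and Tgfbr1 had log2 fold changes of 0.48 (95% interval 0.082 to 0.88) and 0.30 (0.051 to 0.54), and neither passed the test (limma adjusted p = 0.0965 and 0.0959). Without P14 control replicate 2 Tgfb2 passed, with a log2 fold change of 0.68 (limma adjusted p = 0.0348), and with 1 library left out its value ranged from 0.24 to 0.68. Ltbp2 had a value of 0.67 with an interval from -0.31 to 1.65, and with 1 library left out the value ranged from 0.047 to 1.025. Tgfb1 and Ltbp1, which differed between the genotypes, had log2 fold changes of 0.31 (-0.079 to 0.70) and -0.21 (-0.58 to 0.15) between the days in control mice.

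In dMF1/2 mice, limma called none of the 10 between P14 and P16, against 5.80% of all genes. DESeq2 also called none, against 1341 of 13415 genes, and 3 had an unadjusted p under 0.05 in limma, against 22.8%. These were Tgfbr3, with a log2 fold change of 0.41 (95% interval 0.022 to 0.80), Ltbp3, with -0.23 (-0.42 to -0.042), and Tgfbr1, with 0.25 (0.0035 to 0.50; limma adjusted p from 0.137 to 0.213). Tgfb1 and Ltbp1 had values of 0.080 (-0.31 to 0.47) and -0.094 (-0.46 to 0.27). Tgfb2 and Ltbp3 lay apart between the days, 2 of the 10 genes against 27.6% of all genes.

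The test of the difference itself, the interaction of genotype and day, called none of the 10 genes, and none of them had an unadjusted p under 0.05. It called 0 of 13415 genes in all, of which 648 (4.83%) had an unadjusted p under 0.05, and DESeq2 called 7 (0.0522%), none among the 10. The interaction was -0.23 (95% interval -0.78 to 0.32) for Tgfb1, 0.12 (-0.40 to 0.63) for Ltbp1, -0.24 (-0.80 to 0.31) for Tgfbr3 and 0.090 (-0.18 to 0.36) for Ltbp3 on the log2 scale.

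**Figure D4:**
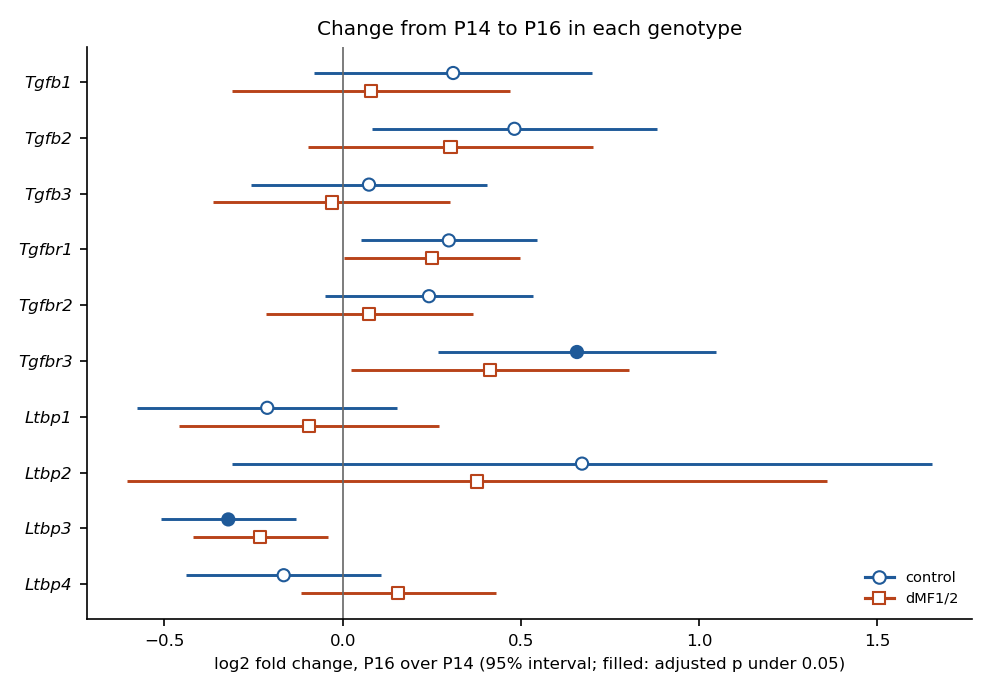
Log2 fold change of P16 over P14 with its 95% interval for each gene in control (circles) and dMF1/2 mice (squares), from 1 fit of the 12 libraries; filled symbols passed the test. Tgfbr3 (0.66) and Ltbp3 (-0.32) are filled in control mice, and the intervals of the genotypes overlap for all 10 genes.

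Other components of the pathway were taken from 4 lists. Of the list on the latent complex and its activation, 2 of 27 genes tested fell in dMF1/2 mice at P16 in limma, and with the replicate block 3 fell and 2 rose. Lrrc32 encodes GARP, which holds latent TGF-beta at the cell surface, and it had 861, 795 and 1084 normalized reads in control and 539, 528 and 468 in dMF1/2 mice at P16 (log2 fold change -0.82, standard error 0.13, limma adjusted p = 0.0144, and 0.0647 without dMF1/2 replicate 3). The other was Adamtsl2, a fibrillin-associated glycoprotein, with a log2 fold change of -1.15 (limma adjusted p = 0.0395), which passed in 2 of the 6 fits without 1 library. Thbs1, or thrombospondin 1, an activator of latent TGF-beta, had 37461, 14810 and 23644 normalized reads in control and 10032, 11051 and 10766 in dMF1/2 mice at P16, without overlap. Its log2 fold change of -1.15 (standard error 0.29) did not pass the test (limma adjusted p = 0.0668), and it passed with the replicate block (adjusted p = 0.0334) and in DESeq2 (7.52e-05). The pair that rose with the block was Emilin1, an extracellular glycoprotein that binds the TGF-beta 1 precursor, and the proprotein convertase Pcsk5. Their log2 fold changes of 0.36 and 0.81 did not pass without the block (limma adjusted p = 0.0731 and 0.208, and 0.0357 and 0.0174 with it). The count of the list was between 0 and 3 with 1 library left out.

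Of the list on receptors and signal transduction, 3 of 26 genes tested fell and 1 rose in dMF1/2 mice at P16. Eng encodes endoglin, a co-receptor of the family that is abundant in endothelium, and it fell from 1998, 2082 and 2197 to 1341, 1361 and 1322 normalized reads (log2 fold change -0.64, standard error 0.075, limma adjusted p = 0.00611). At P16 mural markers were also lower in dMF1/2 mice (461 to 603 against 904 to 1125 CPM), DP markers were higher (3719 to 6208 against 1214 to 2684 CPM) and endothelial markers overlapped (36.5 to 53.1 against 29.8 to 66.5 CPM). The part of these levels in the calls of the 4 lists was not tested. Cd109, a co-receptor that inhibits TGF-beta signaling, fell from 972, 1026 and 1027 to 663, 677 and 685 (log2 fold change -0.58, standard error 0.076, limma adjusted p = 0.00853). Vasn, or vasorin, which traps TGF-beta, fell from 3244, 2467 and 3359 to 1912, 1757 and 1822 (log2 fold change -0.71, standard error 0.12, limma adjusted p = 0.0204). Smad3, a transducer of the signal, rose by 0.42 on the log2 scale (limma adjusted p = 0.0479). Eng and Cd109 passed the test whichever library was left out, while Vasn passed in 1 of the 6 such fits and Smad3 in 0 (adjusted p from 0.0647 to 0.149). The count of the list was 2 or 3 with 1 library left out.

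Of the list of negative feedback and related regulators, 1 of 16 genes passed the test between the genotypes at P16. Bambi, a pseudoreceptor without a kinase domain, rose in dMF1/2 mice from 1031, 1671 and 1734 to 3060, 2351 and 3658 normalized reads (log2 fold change 1.05, standard error 0.22, limma adjusted p = 0.0425). The call was kept in 2 of the 6 fits without 1 library, with an adjusted p of 0.141 without dMF1/2 replicate 3. With the replicate block 3 genes of the list rose and 1 fell.

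Of the list of genes that TGF-beta is known to induce in many cell types, 2 of 29 fell at P16 in limma, and with the replicate block 8 fell and 1 rose. Nox4, a hydrogen peroxide-producing oxidase, fell from 748, 696 and 723 to 435, 393 and 404 normalized reads (log2 fold change -0.81, standard error 0.087, limma adjusted p = 0.00502), and it passed whichever library was left out. Tnc, the matrix protein tenascin C, fell from 3020, 2742 and 1719 to 1104, 699 and 967 normalized reads (log2 fold change -1.42, standard error 0.23, limma adjusted p = 0.0178, and 0.0671 without dMF1/2 replicate 3). At P14 Tnc had 2651, 996 and 2767 normalized reads in control and 737, 424 and 633 in dMF1/2 mice, also without overlap (log2 fold change -1.73, limma adjusted p = 0.301, 0.00351 with the replicate block and 0.461 without both P14 libraries numbered 1). The list count at P16 was 1 to 6 with 1 library left out.

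The lists' shares of called genes at P16, between 6.25% and 15.4%, compare with 4.32% over all genes, and their medians of -0.088, 0.014, 0.029 and -0.16 on the log2 scale with -0.0043. With the replicate block the P16 counts were 5, 4, 4 and 9, against 10.4% of all genes. In a fit of all 12 libraries the P16 count was 1 for each list. No gene of the 4 lists was called at P14 by limma, which called 0.0525% of all genes. In the order above, 2, 0, 1 and 4 of them had an unadjusted p under 0.05 (7.32% of all genes), and DESeq2 called 0, 0, 1 and 2 (1.55% of all genes). Limma with the replicate block called 0, 0, 0 and 2 (1.68% of all genes), the pair being Tnc and Lox, which crosslinks collagen. At P14 the mean of Lox was 34963 ± 3324 normalized reads in control and 21137 ± 1381 in dMF1/2 mice (SD, n = 3), with a log2 fold change of -0.72 (limma adjusted p = 0.248, 0.0146 with the block and 0.164 without both P14 libraries numbered 1). The P16 means of Lox were 22726 ± 3763 and 22746 ± 1919, with a log2 fold change of 0.011 (limma adjusted p = 0.981).

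**Figure D5:**
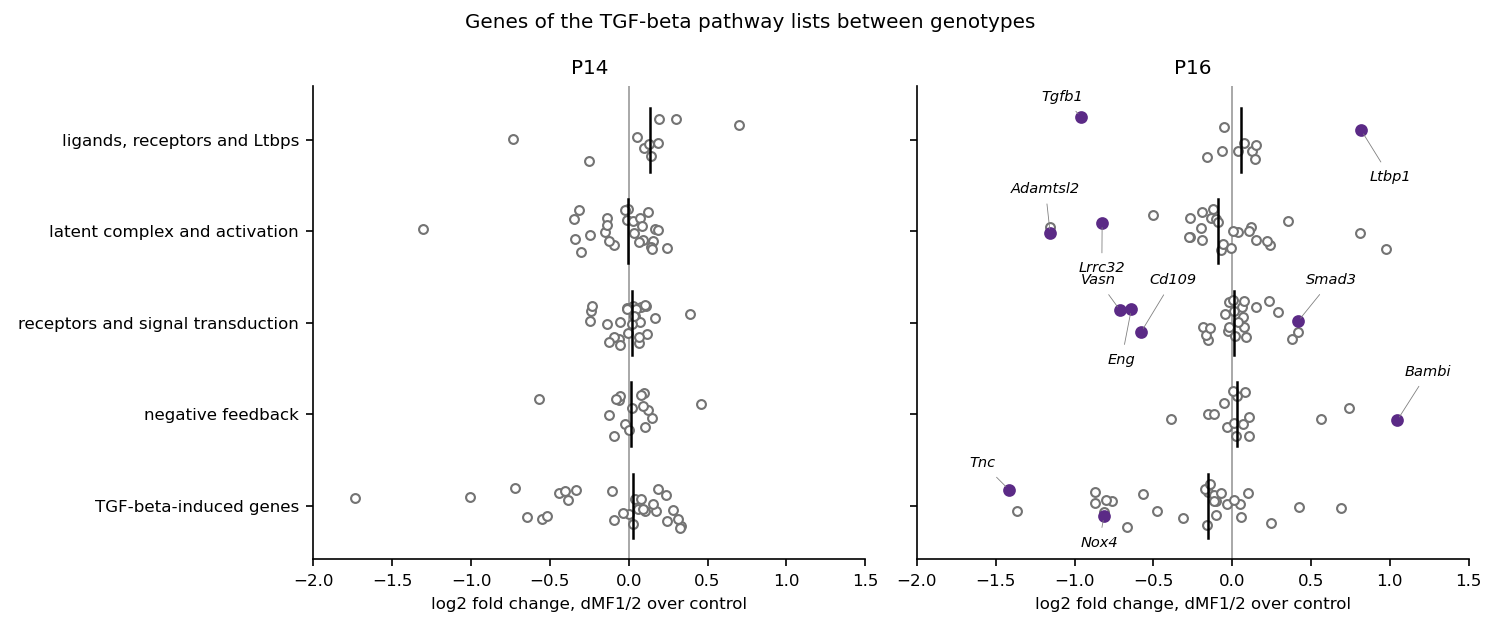
Log2 fold change of dMF1/2 over control at P14 and P16 for the 10 genes and the tested genes of the 4 lists, spread vertically at random within a list; filled and named points passed the test and black bars are medians. No point is filled at P14, and 8 of the 11 filled points at P16, Tgfb1 among them, lie below 0.

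Between the days, 7 of 27 genes of the latent complex list were called in control mice (2 rose and 5 fell), and 5 of 26 of the receptor list (5 rose). Of the feedback list 3 of 16 were called (Usp15 rose, and Bambi and Pmepa1 fell), and of the induced genes 8 of 29 (4 rose and 4 fell). These are 25.9%, 19.2%, 18.8% and 27.6% of the lists, against 14.5% of all genes. Without both P14 libraries numbered 1, these counts were 3, 1, 1 and 1. They were 3, 1, 1 and 0 with only the control libraries in the fit, and 2 to 9, 0 to 6, 0 to 5 and 1 to 8 with 1 library left out. The DP marker sum was lower and the mural and, with nearly touching ranges, dermal fibroblast sums were higher at P16 in the same control mice, as given above. Their part in these counts was not tested. Emilin1 fell in both genotypes, from 4327 ± 301 to 2469 ± 187 rescaled reads (SD, n = 3) in control and from 4807 ± 352 to 3145 ± 216 in dMF1/2 mice (log2 fold changes -0.81 and -0.61, limma adjusted p = 0.000640 and 0.00329). It passed in both genotypes whichever library was left out. Efemp2, or fibulin 4, an elastic fiber protein, fell in control mice (log2 fold change -0.62, limma adjusted p = 0.00968) and had -0.40 in dMF1/2 mice (adjusted p = 0.0783). Bmpr2, a type II receptor for bone morphogenetic proteins, rose by 0.33 in control and by 0.36 in dMF1/2 mice on the log2 scale (limma adjusted p = 0.0289 and 0.0361). In control mice Acvr2a, an activin receptor, rose by 0.49 on the log2 scale, Lox fell by 0.67 and Angptl4, a secreted lipase inhibitor, rose by 0.82 (limma adjusted p = 0.0153, 0.0125 and 0.0226). Without both P14 libraries numbered 1, the adjusted p was 0.0589 for Bmpr2 in control mice and 0.0657 for Angptl4. The deubiquitinase Usp15 rose by 0.32 on the log2 scale in control mice (limma adjusted p = 0.0195, and 0.0468 without them). Thbs1, Cd109, Nox4 and the bone morphogenetic protein receptor Bmpr1a rose by 1.06, 0.66, 0.42 and 0.33, and Bambi, the feedback inhibitor Pmepa1, Pcsk5, the plasminogen activator Plat and Ctps, an enzyme of nucleotide synthesis, fell by 0.83, 0.34, 1.10, 1.08 and 0.67 on the log2 scale (limma adjusted p from 0.0183 to 0.0475, and from 0.0506 to 0.107 without them). In dMF1/2 mice the counts of the lists were 1, 2, 0 and 0, in the same order, against 5.80% of all genes. Of the lists, 5, 9, 4 and 3 genes had an unadjusted p under 0.05 in limma, against 22.8% of all genes, and DESeq2 called 5, 5, 0 and 0, against 1341 of 13415 genes. Of the genes named here, Emilin1 and Efemp2 passed in control mice whichever library was left out, and the others each lost their call in at least 1 such fit. The limma interaction test called none in any list, while 2, 2, 1 and 3 genes had an unadjusted p under 0.05 (4.83% of all genes), and DESeq2 called 0 in each, or 2, 0, 1 and 1 with the replicate block.

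Among 10239 genes with a mean of at least 100 rescaled reads, those whose level followed a member most closely over the 12 libraries were named for the 4 members that were called. For Tgfb1 these were Sh2b3 and Prg4, with a Pearson r of 0.986 and 0.974. For Ltbp1 they were Neo1, Clmn and Wnt5a (0.963, 0.958 and 0.952). For Tgfbr3 they were Rora, Naaladl2 and Antxr2 (0.976, 0.969 and 0.969), and for Ltbp3 Matn4, Efemp2 and Prkaca (0.963, 0.963 and 0.960). These values describe the libraries, which share the groups and the scaling, and they were not tested. Over the 10 libraries without both P14 libraries numbered 1, the r of these genes was between 0.932 and 0.989.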

How the data were processed

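RNA from FACS-sorted YFP-positive DP cells of 12 mice was sequenced by the authors as single-end reads from stranded, ribosome-depleted libraries. Per the labels and the methods, the authors trimmed reads with Trimmomatic, aligned them to mm10 with Tophat (version 2), used HTSeq-count for reads per Ensembl gene, and scaled these with DESeq2. The deposited signal values are reads divided by a size factor set over the 6 libraries of a day, and all values (100%, within a tolerance of 1e-06 of a read) were whole multiples of 1 constant per library, so the reads were recovered. The authors' own fold changes, test scores and p-values were not used.

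Within each day, dMF1/2 and control mice were compared by limma 3.58.1 (R 4.3.3, mean-variance trend) on log2(normalized reads + 1), keeping genes whose mean reached 10, with Benjamini-Hochberg adjustment over all genes and a threshold of 0.05. Fold changes are on that scale. Days were compared on the recovered reads of 14986 shared genes, rescaled by the median of ratios, in 1 fit of 4 groups, so comparisons share samples. Exact two-sided permutation tests of 3 against 3 cannot go below p = 0.1, the value for each pair of groups that did not overlap. The alternatives were DESeq2 1.42.0, edgeR 4.0.16, TMM and upper-quartile scaling, pseudocounts of 0.1 and 10, other filters on low values, other sets of libraries in the fit, the replicate block and leaving out each library. Leaving out both P14 libraries numbered 1 was chosen after seeing the data. The limma, DESeq2 and edgeR tests without the block were checked on simulated reads with known changes. There DESeq2 made a larger share of false calls than limma or edgeR in each comparison. The simulated libraries were drawn independently, with each gene's spread taken over all groups. The check therefore does not cover libraries that deviate together, and it cannot decide between the tools for single genes here. Replicate numbers paired within a day: deviations from the group means correlated at 0.586, 0.389 and 0.304 (P14) and 0.256, 0.293 and 0.311 (P16).

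The genes and lists were chosen with earlier results of these data known. All 10 genes were named, with called genes of each list (at most 6, by adjusted p; Adamtsl2 and Smad3 were named after their values were seen), the 3 genes most like each called member, and the markers. Some genes that this rule names are not reported here. Exon lengths are unions of GENCODE M21 exons within the deposited gene span. Intervals cover the spread between mice. Libraries of other days were not analysed here.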

Additional observations from a re-analysis of the deposited data

How the results depend on the processing

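With all libraries kept, 494 of 500 log2 fold changes of the 10 genes kept their direction and their side of the threshold. The 4 that newly passed were Tgfb1 and Ltbp1 at P14 under DESeq2, with and without the replicate block, which called 2 members there, and the 2 that no longer passed were Tgfbr3 and Ltbp3 in control mice between the days when only the libraries compared were fitted (0 members). The replicate block was fitted for the genotype on each day and for the interaction, not for the changes between days. In those fits no other call of a member changed. The number of genes called was 7 at P14, and 207 with DESeq2, 224 with limma and the replicate block, 363 with DESeq2 and the replicate block, 11 in a fit of 12 libraries, and 0 to 18 with 1 library left out. At P16 it was 582, and 1123, 1403 and 1205 in the first 3 of these, and 149 to 684 with 1 library left out. For the days it was 1951 in control mice (806 with only the libraries compared, 951 without both P14 libraries numbered 1, 693 to 2129 with 1 left out) and 778 in dMF1/2 mice (1341 with DESeq2, 322 with only the libraries compared, 257 to 861 with 1 left out). The interaction had 0, and 7 with DESeq2, 163 with DESeq2 and the replicate block, 2 without both P14 libraries numbered 1 and 0 to 2 with 1 left out. The cause of these differences was not tested.

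With 1 library left out, the members called ranged from 0 to 2 at P16 and from 0 to 2 in control mice between the days, and stayed at 0 in the other comparisons. Without both P14 libraries numbered 1, 0 members were called in control mice between the days, and the log2 fold change changed sign for Ltbp2 at P14 (-0.11), Tgfb3 in control mice between the days (-0.099), Tgfbr2 (-0.054) and Ltbp2 (-0.0012) in dMF1/2 mice between the days, and the interaction of Tgfb2 (0.012) and Tgfbr1 (0.0043), all uncalled.

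With 1 library left out, these uncalled log2 fold changes spanned 0: at P14 Tgfb3 (-0.034 to 0.28), Tgfbr2 (-0.027 to 0.23) and Ltbp2 (-0.49 to 0.51); at P16 Tgfb3 (-0.022 to 0.093), Tgfbr2 (-0.13 to 0.046), Tgfbr3 (-0.15 to 0.11) and Ltbp4 (-0.016 to 0.13). Between the days, Tgfb3 in control mice (-0.099 to 0.17) did so, as did Tgfb1 (-0.014 to 0.21), Tgfb3 (-0.17 to 0.080), Tgfbr2 (-0.054 to 0.20), Ltbp1 (-0.21 to 0.049) and Ltbp2 (-0.0012 to 0.63) in dMF1/2 mice, and in the interaction Tgfb2 (-0.38 to 0.065), Tgfb3 (-0.24 to 0.068), Tgfbr1 (-0.13 to 0.035), Ltbp1 (-0.042 to 0.26) and Ltbp2 (-0.67 to 0.33). The 10 genes held at least 671 reads in each library.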
